A study of Mus musculus with 2 samples.

Results

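The genes described here carry iron into the cell, store it, release it, or sense it. They are Tfrc and Slc11a2 (uptake), Fth1 and Ftl1 (storage), Slc40a1 (export), and Aco1 and Ireb2 (regulation). Members were chosen by gene symbol alone, as every protein-coding transcript of these 7 genes in GENCODE M21, and 17 transcripts were found among the 49490 protein-coding transcripts of the deposited table. Another 6 coding transcripts of these genes in that annotation were without a row, 4 of them of Fth1, 1 of Ftl1 and 1 of Ireb2.

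Iron enters most cells as transferrin bound to the transferrin receptor, leaves the endosome through a divalent metal transporter, and is either used, stored inside ferritin shells made of heavy and light chains, or exported by ferroportin. Iron regulatory proteins, encoded by Aco1 and Ireb2, bind short RNA hairpins called iron responsive elements when iron is scarce. A bound element in a 5′ UTR blocks translation, as in ferritin and ferroportin messages, and bound elements in the 3′ UTR of the transferrin receptor message shield it from decay.

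The cells were feeder-depleted DTCM23/49 XY mouse embryonic stem cells, wild type, grown on gelatin in medium with serum and leukemia inhibitory factor. They received 200 µM 4-thiouridine (4sU), a uridine analogue that is built into new RNA, for 10 min. Streptavidin beads then took out the RNA that had been tagged with biotin at its 4sU, and the labeled RNA and the RNA left behind (unlabeled) were sequenced as 1 library each, both from biological replicate 1. The labels describe the second library as preexisting RNA in one field and as total in others, and it was taken as unlabeled RNA unless stated otherwise. All groups here share the genotype, the line, the culture and the labeling, there is no untreated control among them, and no difference below has a replicate check.

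Each library holds 1 exon value and, for most transcripts, 1 intron value per transcript, corrected for length, so that genes can be ordered by level within a library. Levels below are in this deposited unit, which its makers named TPM although a column adds up to about 10000000. Without read counts the depth is unknown, and values have no counting interval. Introns made up 15.4% of the signal in labeled RNA and 6.26% in unlabeled RNA. All 10 embryonic stem cell markers of a list were present, at 72.9 to 6580 in unlabeled RNA. Of 8 feeder fibroblast markers, 4 were listed at 0 there and their summed level was 22.8, against 13500 for the stem cell markers. Their sums in labeled RNA were 9.35 and 11800. Of 5 endoderm markers 4 were listed at 0 in unlabeled RNA, and 4 mesoderm markers reached at most 3.42. Macrophage markers summed to 103 in labeled and 84.3 in unlabeled RNA, nearly all from Cd68, with Ptprc and Adgre1 listed at 0. Erythroid markers summed to 21.6 and 5.30, and in unlabeled RNA only Alas2 was above 0. The part of such cells in the levels below was not tested.

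Letters of the iron responsive element set some transcripts of these genes apart from others, also within a gene. The pattern searched, on the sense strand of the spliced transcript, was an unpaired C, then NNNNN (any 5 bases), then the loop CAGTGN, with at least 4 of the 5 bases before the loop able to pair with the 5 bases after it, by Watson-Crick or G-T pairs. T stands for U. Such a match is a description of letters and not a measured binding site. It was found in the UTRs of 5 of the 17 transcripts, 1 each of Tfrc, Slc11a2, Fth1, Ftl1 and Slc40a1. Among all coding transcripts with the UTR in question, 0.674% of 40367 5′ UTRs and 3.20% of 37598 3′ UTRs held a match, and with all 5 pairs the shares were 0.131% and 0.476%.

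The storage and export messages held 1 match each in the 5′ UTR, all with 5 pairs. Each window of 27 bases is shown because its place in the transcript tells the ferritin and ferroportin messages apart from the receptor message. The unpaired C and the loop are in capitals, and coordinates are GRCm38. Fth1-201 has it at chr19:9982733-9982759 on the plus strand, with 110 bases between it and the start codon. In Ftl1-201 it lies at chr7:45459780-45459806 on the minus strand, 148 bases before the start codon. In Slc40a1-201 it lies at chr1:45925466-45925492 on the minus strand, 202 bases before the start codon.
Fth1-201: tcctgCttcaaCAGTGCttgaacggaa
Ftl1-201: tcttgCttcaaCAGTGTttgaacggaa
Slc40a1-201: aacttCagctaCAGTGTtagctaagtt
The ferritin windows were identical at 25 of 27 positions, with C3T and C17T from Fth1 to Ftl1, counted from 1 at the 5′ end of the window. The Slc40a1 window matched the Fth1 window at 13 positions. Among 5′ UTRs within 25% of the same length, a match occurred in 0.652% (Fth1), 0.660% (Ftl1) and 0.960% (Slc40a1).

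Tfrc-201, the long form of the receptor message, held 4 matches with 5 pairs in its 3′ UTR, all on the plus strand of chromosome 16. They lie 883, 1262, 1327 and 1374 bases after the end of the coding sequence, at chr16:32631220-32631246, chr16:32631599-32631625, chr16:32631664-32631690 and chr16:32631711-32631737. They are shown because no other coding transcript had as many.
Tfrc-201 at 883: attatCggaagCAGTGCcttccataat
Tfrc-201 at 1262: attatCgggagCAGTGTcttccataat
Tfrc-201 at 1327: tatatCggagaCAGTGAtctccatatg
Tfrc-201 at 1374: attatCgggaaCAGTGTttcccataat
Of the 49490 coding transcripts, Tfrc-201 was the 1 with 4 or more such 3′ UTR matches, and no other had more than 1. The windows at 883 and 1262 were identical at 25 of 27 positions. Tfrc-202 ends in another 3′ UTR of 235 bases, against 2458 in Tfrc-201, and held no match. Slc11a2-205, the highest form of the metal transporter, held a weaker match with 4 pairs, shown because Slc11a2-201 lacks it. It lies 32 bases after the coding sequence, at chr15:100395154-100395180 on the minus strand.
Slc11a2-205: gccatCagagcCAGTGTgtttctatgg
In 3′ UTRs of like length a match occurred in 7.04% for Tfrc-201 and 7.40% for Slc11a2-205. Slc11a2-201, Aco1-201 and Ireb2-201 held none.

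**Figure D1:**
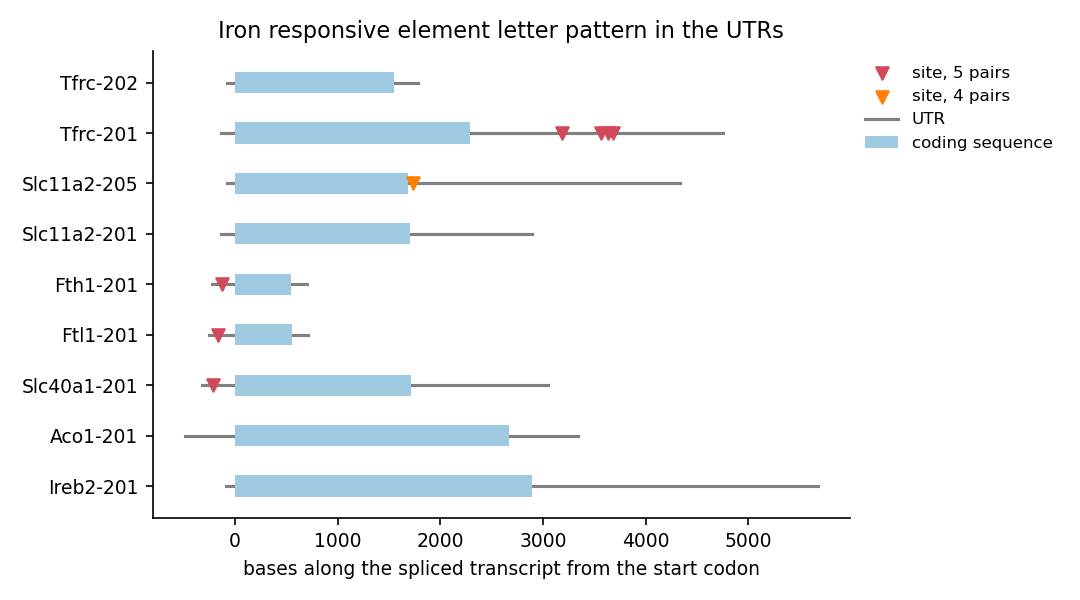
Complete spliced transcripts of the 7 iron genes drawn to scale, in bases from the start codon, with UTRs as lines, coding sequence as bars and letter matches as triangles (5 pairs red, 4 pairs orange). The matches lie before the coding sequence in Fth1-201, Ftl1-201 and Slc40a1-201 and after it in Tfrc-201 and Slc11a2-205.

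Uptake genes were lower in labeled than in unlabeled RNA, as was the median coding gene. Of the uptake genes only Tfrc stood far below that median. The summed exon level of Tfrc, which encodes the transferrin receptor, was 305 in labeled and 1353 in unlabeled RNA. That placed it at percentile 89.3 and 96.4 of 14127 coding genes with a mean exon level above 1. Relative to the median coding gene, whose log2 labeled over unlabeled value was -0.26, Tfrc lay at -1.89 on the log2 scale, or 3.72-fold below, at percentile 2.53. Slc11a2, the divalent metal transporter DMT1, was measured at 46.5 in labeled and 75.4 in unlabeled RNA and lay at -0.44, percentile 33.9, inside the middle quartiles of coding genes (-0.68 and 0.84). In labeled RNA Tfrc was 6.55 times the level of Slc11a2 and in unlabeled RNA 17.9 times.

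The ferritin chains stood near the median coding gene. Fth1, the heavy chain with the ferroxidase activity, was at 755 in labeled and 803 in unlabeled RNA, percentiles 95.7 and 93.8. Ftl1, the light chain that helps form the mineral core, was at 1381 and 1129, percentiles 97.6 and 95.6. Ftl1 was thus higher than Fth1 in both pools, 1.83 times in labeled and 1.41 times in unlabeled RNA. The centred log2 values were 0.17 for Fth1 and 0.55 for Ftl1. Both lie within reach of the choice of centre. The median of all genes moved by 0.35 with all biotypes, 0.26 with a pseudocount of 1 and 0.73 with introns added to exons, while the uncentred log2 of Fth1 stayed between -0.09 and -0.04 under these. Its centred value was then -0.19, -0.09 and -0.51, and that of Ftl1 with introns added -0.09, so no direction is given for either. Tfrc stood at 1.68 times the level of Fth1 in unlabeled RNA and at 0.403 times in labeled RNA.

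The ferritin values carry a doubt about shared sequence. Of the 31-base words of Ftl1-201, 85.4% also occur in transcripts of other genes, 30 in all, and 12.9% of those of Fth1-201 occur in 3 others. Of the 801 shared words of Ftl1-201, 756 occur in Ftl1-ps1, which had no deposited value. Gm15590 held 393 and Ftl2-ps 354. The other 5 main transcripts shared at most 0.342%. Processed pseudogenes in the table reached ferritin-like levels: Gm15590 was at 2002 in labeled and 1879 in unlabeled RNA, and Ftl2-ps at 446 and 468. For Fth1, Gm6977, which held 102 of the 116 shared words, was at 233 and 213, and Fth-ps2, with 12, at 672 and 201. How reads were split between parent and copies was not tested, so the levels of Ftl1 are uncertain. Ftl1 summed with Ftl1-ps2 and Ftl2-ps gave a centred log2 of 0.44, and with all 11 measured processed pseudogenes that share at least 10 words with it (3760 in labeled and 3570 in unlabeled RNA in sum) 0.39. Fth1 summed with its 2 (905 and 414) gave 0.7. Rows annotated as miRNAs that share words with Ftl1 were left out of these sums, and some stood above Ftl1 itself. The highest in labeled RNA, Gm22774, was at 2102 in labeled and 1168 in unlabeled RNA. All 20 measured genes that share at least 10 words with Ftl1, miRNA rows included, summed to 14100 and 9920. The value of 0.39 therefore does not cover all of this doubt.

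Slc40a1, the iron exporter ferroportin, was barely present. Its exon level was 7.56 in labeled and 1.61 in unlabeled RNA, percentiles 22.7 and 7.67. It lay at 2.49 on the centred log2 scale, 5.61-fold above the median, at percentile 95.0. A pseudocount of 1 brought that to 1.04, since the unlabeled level of 1.61 is close in size to the pseudocount. Of its 4 coding transcripts, Slc40a1-201 held 5.23 and 1.61, Slc40a1-203 and Slc40a1-206 were at 1.24 and 1.09 in labeled RNA and listed at 0 in unlabeled RNA, and Slc40a1-205 was listed at 0 in both. In bulk RNA, fewer cells of a type and less RNA per cell cannot be told apart. Slc40a1 is also a macrophage gene, and the macrophage markers stood as given above.

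The regulators were of moderate level. Aco1 encodes the cytosolic aconitase that becomes iron regulatory protein 1 when it loses its iron-sulfur cluster, and Ireb2 encodes iron regulatory protein 2, which is degraded when iron is plentiful. Aco1 was at 18.58 in labeled and 35.85 in unlabeled RNA, and Ireb2 at 78.2 and 167. Ireb2 was 4.21 times the level of Aco1 in labeled and 4.66 times in unlabeled RNA. The centred log2 values were -0.69 for Aco1 and -0.84 for Ireb2, percentiles 24.7 and 19.7. That of Aco1 turned to 0.11, on the same centre, when its noncoding transcripts were added. In unlabeled RNA the order of levels was Tfrc, Ftl1, Fth1, Ireb2, Slc11a2, Aco1 and Slc40a1, and in labeled RNA Ftl1, Fth1, Tfrc, Ireb2, Slc11a2, Aco1 and Slc40a1. With 1 library per pool it cannot be said which neighbours differ beyond their spread.

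**Figure D2:**
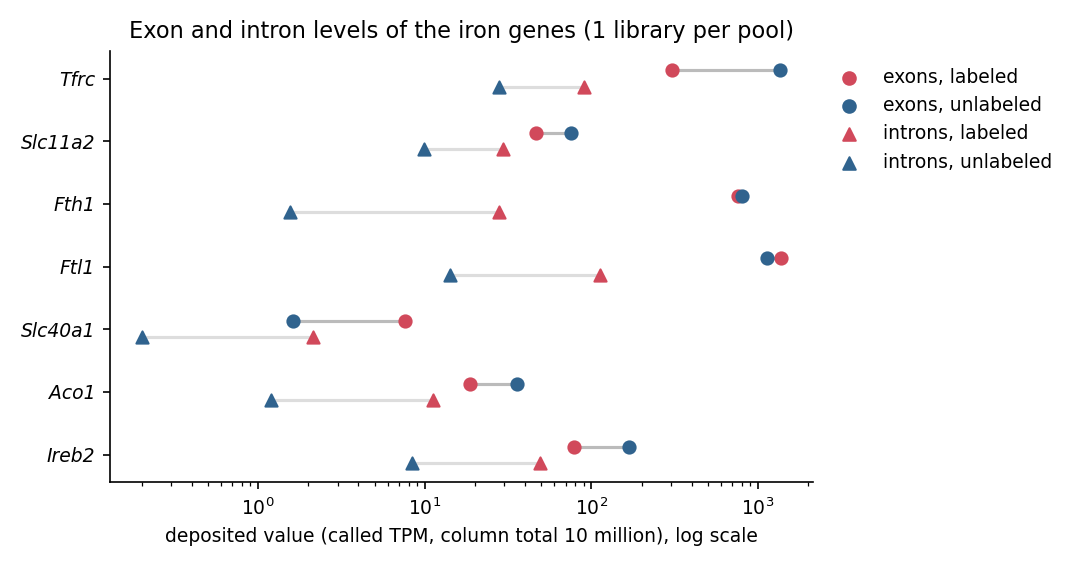
Exon (circles) and intron (triangles) levels of each gene in labeled (red) and unlabeled (blue) RNA, as deposited, on a log axis, with 1 library per pool. Intron levels were higher in labeled RNA for all 7 genes, as for 97.3% of coding genes, while exon levels of Tfrc were lower there (305 against 1353) and those of Slc40a1 higher (7.56 against 1.61).

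At a distance of 2-fold from the coding median, 1 of the 7 genes (Tfrc) lay below, where 14.8% of 14127 coding genes did, and 1 (Slc40a1) above, where 21.9% did. The median of the members was -0.44, against 0 for all coding genes. Ireb2 lay near the lower line. With leakage subtracted it passed it (-1.1), and with all biotypes (-1.19) or a pseudocount of 1 (-1.08) it passed because the median of all genes moved, its own log2 being -1.09 and -1.08 there against -1.09. The genes with a 5′ UTR match had values of 0.17, 0.55 and 2.49, those with a 3′ UTR match -1.89 and -0.44, and those with none -0.69 and -0.84. For Tfrc, Slc11a2 and Slc40a1 these are sums over transcripts with and without a match. Within Tfrc, Tfrc-201 with the matches was at -1.68 and Tfrc-202 with none was lower, at -2.17. Whether the place of a match goes with these values was not tested.

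**Figure D3:**
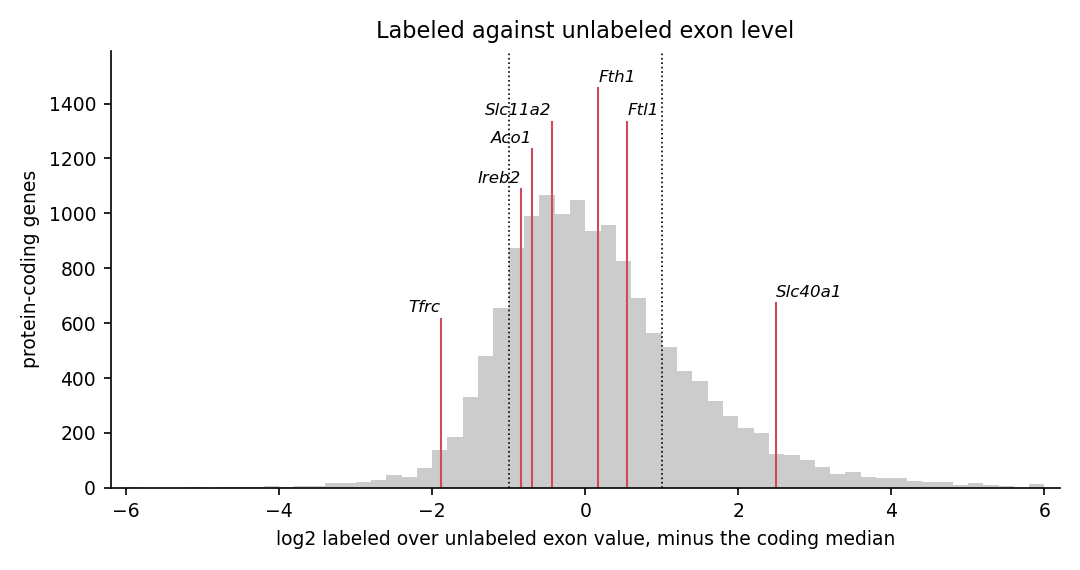
Distribution over 14127 coding genes of the log2 labeled over unlabeled exon level minus its median, with the iron genes as red lines and the 2-fold distances dotted; values beyond the axis are placed in the end bins. Tfrc stands in the low tail at -1.89 and Slc40a1 in the high tail at 2.49, with the other 5 between the dotted lines.

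Pulled-down RNA can carry some unlabeled RNA. If the lowest labeled over unlabeled exon values of coding transcripts (percentile 1, a ratio of 0.139) were all such leakage, it would make up 61.5% of the labeled exon level of Tfrc, 29.6% of that of Ireb2 and 2.95% of that of Slc40a1. With it subtracted Tfrc had 117 in labeled RNA and a centred log2 of -3.02. Capture depends on uridines as well. The main transcripts held 209 (Ftl1) to 1806 (Ireb2) uridines, Tfrc-202 held 539, and the median coding transcript held 518. Tfrc-201, with a mean exon level of 410 against 412 for Tfrc-202, held 1537. The part of uridine number in these values was not tested.

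Intron signal was higher in labeled RNA for 7 of 7 genes, as it was for 97.3% of 13031 coding genes, so only its size is described. The intron level of Fth1 was 27.93 in labeled and 1.55 in unlabeled RNA, 18.0-fold, at percentile 98.4 of 13031 coding genes, whose median was 3.90-fold. Slc40a1 had 2.13 and 0.2, or 10.6-fold, from low values. Aco1 had 11.17 and 1.2, 9.31-fold, and Ftl1 112.5 and 14.08, 7.99-fold. The percentiles of the latter 3 genes were 95.4, 93.8 and 91.4, so all 4 stood far above the coding median. Ireb2 had 49.29 and 8.41 (5.86-fold), Tfrc 89.9 and 27.93 (3.22-fold) and Slc11a2 29.66 and 9.91 (2.99-fold). For Tfrc and Slc11a2 that was less than the coding median. For Slc11a2 this rests on Slc11a2-201 (7.28 and 6.73, 1.08-fold). Each of its other coding transcripts had 4.56-fold or more, above that median.

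The intron to exon ratio sets premature RNA (introns) against premature and mature RNA together (exons) inside a library, and needs no scaling between libraries. It was higher in labeled RNA for 7 of 7 genes, as it was for 91.0% of coding genes. The ratios of Tfrc were 0.295 in labeled and 0.0206 in unlabeled RNA. Those of Fth1 were 0.0370 and 0.00193, and those of Ftl1 0.0815 and 0.0125. Ferritin RNA was thus mostly spliced signal in both pools: in labeled RNA Fth1 stood at percentile 1.80 and Ftl1 at 4.90, and in unlabeled RNA at 0.422 and 4.90. The coding medians were 0.576 and 0.122. Fth1-201 and Ftl1-201 span 2453 and 1941 bases before splicing, against a median of 22100 in the coding transcripts with all values, and their introns add up to 1524 and 973 bases. Ratios of Ftl1 share the doubt about pseudogene copies, which have no introns. The part of intron length in these ratios was not tested.

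Aco1 and Ireb2 had labeled ratios of 0.601 and 0.630, close to the coding median, and unlabeled ratios of 0.0335 and 0.0504. Their transcripts span 55258 and 48742 bases before splicing. The ratio was 18.0 times higher in labeled RNA for Aco1 and 12.5 times for Ireb2, with 14.3 for Tfrc, 19.2 for Fth1 and 6.53 for Ftl1. Across coding genes the median was 4.65 (quartiles 2.29 and 8.62). Slc11a2 (0.638 and 0.131, 4.86-fold) and Slc40a1 (0.282 and 0.124, 2.27-fold) had smaller folds than the other members, and both depend on which transcripts are summed. Ratios of other members also changed with the setting. The unlabeled ratio of Aco1 was 0.0663 with all biotypes (labeled 0.759) and 0.0597 with a pseudocount of 1 (labeled 0.622). That of Fth1 was 0.00317 with this pseudocount (labeled 0.0382). The labeled ratio of Tfrc was 0.734 with leakage subtracted.

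For Slc11a2, 1 transcript carried much of the unlabeled intron signal. Slc11a2-201 had intron levels of 7.28 in labeled and 6.73 in unlabeled RNA, 1.08-fold, while its other 5 coding transcripts ranged from 4.56-fold to 16.8-fold. Of its 32133 intron bases, 2777 (8.64%) are exons of another coding transcript of the gene, the largest such share among the 17. Without Slc11a2-201 the gene's ratios were 0.542 and 0.0479. For Slc40a1, the coding transcripts other than Slc40a1-201 brought intron values with little or no exon value, and Slc40a1-201 alone had ratios of 0.0975 and 0.0248, from an unlabeled intron value of 0.04.

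The receptor's long and short forms can be set side by side, though they differ in more than the hairpin letters. Tfrc-202 has 13 exons and a coding sequence of 1548 bases, against 19 and 2292 in Tfrc-201. Tfrc-201, with the 4 hairpin matches, had exon levels of 170 in labeled and 651 in unlabeled RNA. Tfrc-202, without them, had 129 and 695. Tfrc-203, an incomplete model, had 5.19 and 6.53. The centred log2 values were -1.68 for Tfrc-201 and -2.17 for Tfrc-202, and the intron to exon ratios were 0.218 and 0.0157 for the former and 0.290 and 0.0210 for the latter. The forms share most of their exons, so these values rest on how RSEM divided the reads, which was not tested. Among the coding transcripts of Slc11a2, Slc11a2-205 had 23.91 and 45.88, Slc11a2-203 8.17 and 9.71, Slc11a2-201 5.21 and 9.07, Slc11a2-202 2.66 and 6.96, Slc11a2-207 3.73 and 1.97, and Slc11a2-208 2.81 and 1.84.

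The study estimated rates for each transcript from its pair of ratios. In that model premature RNA is made at a constant rate, spliced at a processing rate and then degraded, and labeled RNA is what was made during the 10 min. A pair of ratios can arise only if the labeled ratio is under 1 and above the unlabeled one. Of the 17 transcripts, 14 had all values above 0 and a mean exon level above 1; the 3 others were those of Slc40a1 listed at 0. Of the 14, 9 were compatible, beside 66.7% of 31386 coding transcripts, and 5 had a labeled ratio of 1 or more, beside 28.2%. Those 5 were Tfrc-203 and 4 transcripts of Slc11a2, none with a mean exon level above 10. Of the 9 compatible transcripts, 3 had an exact solution (Aco1-201, Ireb2-201 and Slc11a2-203), beside 42.8% of 20920. The other 6 lay below the line of 1/(2 - unlabeled ratio), above which the model has 1 solution, and had none. Their rates are therefore the minimum of the study's 1-variable fit. That fit need not be the nearest to the observed ratios, and a free fit of both variables gave other rates, given below.

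**Figure D4:**
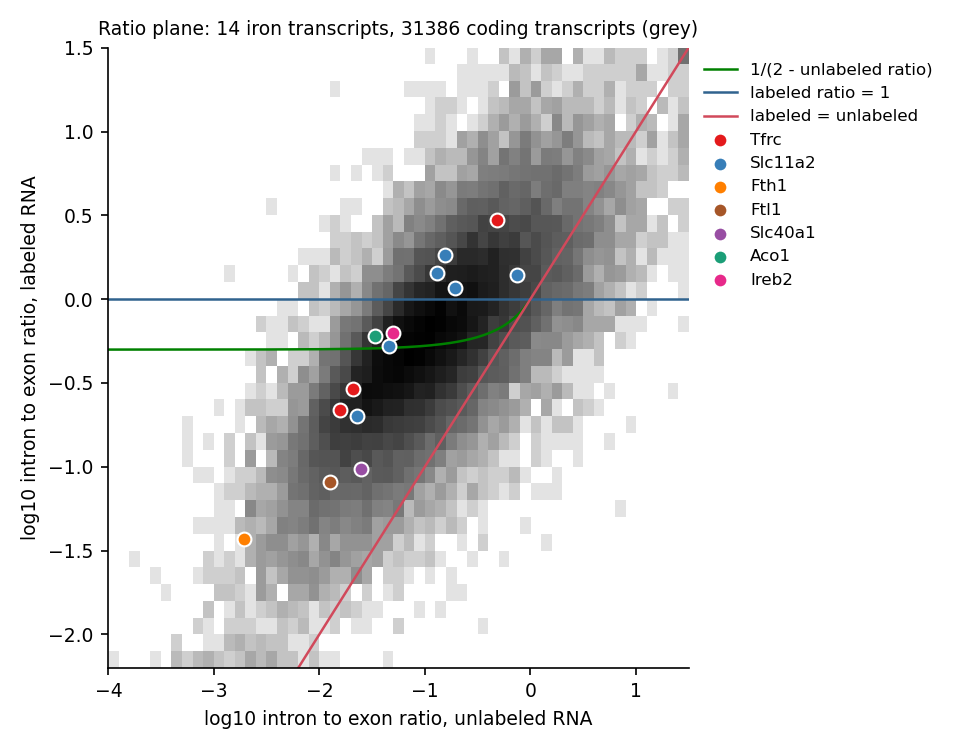
Intron to exon ratio in labeled against unlabeled RNA on log10 axes, for 31386 coding transcripts (grey, darker for more; values beyond the axes are placed in the edge bins) and 14 iron transcripts (colors). Above the green line the model has 1 solution, and no pair of ratios above the blue or below the red line can arise from it; Fth1-201 lies at the lower left, with ratios of 0.0370 and 0.00193.

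In the main estimate, degradation half-lives were lowest for the receptor, which did not hold under all settings. The main transcript of each gene, the highest with all values above 0, gave 11.0 min for Tfrc (Tfrc-202), 20.3 min for Slc11a2 (Slc11a2-205), 45.5 min for Ireb2, 47.2 min for Slc40a1, 50.2 min for Ftl1, 56.3 min for Aco1 and 84.9 min for Fth1. Tfrc-201 gave 17.1 min. The median of 20920 compatible coding transcripts, minor forms of a gene included, was 19.0 min (quartiles 10.1 and 41.1). The main transcripts of 5 of the 7 genes stood above this upper quartile, which is not taken over main transcripts alone. Of those 5, Fth1, Ftl1 and Slc40a1 had no exact solution and fell to 8.31, 5.22 and 4.27 min when both variables were fitted. Processing half-lives ran from 2.02 min (Fth1) to 6.56 min (Ireb2), with a coding median of 3.88 min. They too moved: read as total RNA, Fth1 had 0.250 min, Ftl1 0.526 min, Slc40a1 0.599 min and Slc11a2 1.35 min. With leakage subtracted Aco1 had 15.6 min and Ireb2 24.9 min, and a pseudocount of 0.1 took Slc40a1 from 3.51 to 6.02 min. These are single estimates without error, and the exact solutions among them are those of Aco1 and Ireb2.

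The half-lives moved with the setting at least as much as they differed between genes, except for Aco1. The highest of the main estimates was 7.72 times the lowest. Over the main estimate and its alternatives (2-variable fit, leakage subtracted, total RNA, pseudocount of 0.1, choice of root), the highest was 5.48 (Aco1) to 22.3 (Tfrc) times the lowest within a gene, and over 7.72 in 6 of 7 genes. When both variables were fitted freely, the 5 genes without an exact solution dropped to 4.22 to 8.31 min, while Aco1 and Ireb2 kept 56.3 and 45.5 min. The distance between the observed and fitted log ratios in the main estimate was 2.23 for Fth1, 1.76 for Ftl1 and 1.73 for Slc40a1, against a median of 0.744 among coding transcripts without a solution. It was 0.838 for Slc11a2-205, 0.649 for Tfrc-201 and 0.364 for Tfrc-202. Subtracting leakage raised Aco1 to 289 min and Ireb2 to 357 min, raised Tfrc-201 to 30.7 min, and took Tfrc-202 to a labeled ratio of 1.08, outside the model. Reading the second library as total RNA, as some of its labels have it, gave 95.0 min for Tfrc, 129 min for Fth1, 41.7 min for Ftl1, 23.5 min for Slc40a1 and 128 min for Ireb2. Tfrc then no longer had the lowest value, nor did it in the free fit, with 4.26 min against 4.22 min for Slc11a2.

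**Figure D5:**
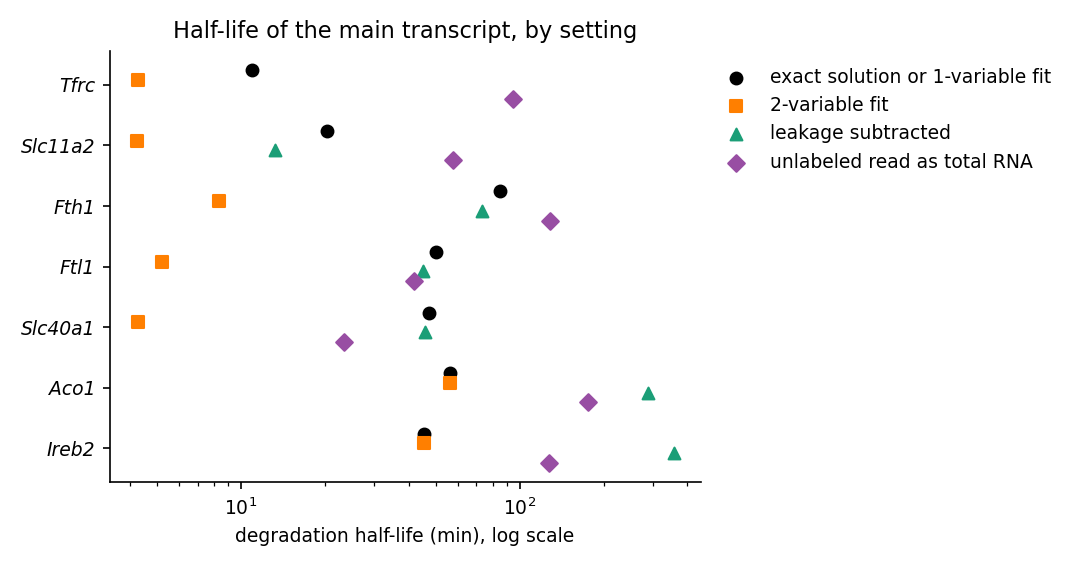
Degradation half-life in minutes on a log axis for the main transcript of each gene, by setting: exact solution or 1-variable fit (black), 2-variable fit (orange), leakage subtracted (green; Tfrc has no value) and second library read as total RNA (purple). Black points run from 11.0 min (Tfrc) to 84.9 min (Fth1), and Tfrc has the lowest black point but, read as total RNA, stands at 95.0 min, above Slc40a1 at 23.5 min.

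The letters ATTTA, the core of AU-rich elements in unstable messages, were counted in the 3′ UTRs on the sense strand. Tfrc-201 held 5, Ireb2-201 4, Slc11a2-205 3 and Slc40a1-201 2, while Fth1-201, Ftl1-201, Aco1-201 and Tfrc-202 held 0. At least 1 was present in 56.8% of all coding 3′ UTRs. Among 3′ UTRs within 25% of the same length it was present in 93.7% for Tfrc-201, 94.9% for Ireb2-201, 94.5% for Slc11a2-205 and 81.5% for Slc40a1-201. For the transcripts with 0 the share was 60.3% for Aco1-201, 28.5% for Tfrc-202, 20.2% for Ftl1-201 and 19.3% for Fth1-201. As many as in Tfrc-201 were found in 43.3% of 3′ UTRs of its length.

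The genes nearest to a member by exon level and intron to exon ratio in both pools, 4 values each divided by its SD over 13031 coding genes, were named for 3 members. For Tfrc they were Atp2a2, a calcium pump (distance 0.130, centred log2 -1.74), Pphln1 (0.198, -1.62) and Pogz (0.220, -1.52). For Fth1 they were farther off: Hmgb2, a chromatin protein (0.362, 0.7), Ddx18 (0.365, -0.74) and Dnajc21 (0.527, -0.46). For Ftl1 they were Eif1, a translation initiation factor (0.0352, 0.65), Ran, a GTPase of nuclear transport (0.123, 0.64), and Dnajc7 (0.208, 0.19). The likeness is over the same 2 libraries and is a description.

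Of a list of 66 other iron genes, 63 were measured and 54 passed the filter. Of these 7 lay at least 2-fold below the coding median, 14 at least 2-fold above it and 33 between, with a median of -0.12. The backgrounds are the 14.8% and 21.9% above. The highest was Pcbp2, an iron chaperone that delivers iron to ferritin and an abundant RNA-binding protein, with 1080 in labeled and 3490 in unlabeled RNA and a centred log2 of -1.44. Ncoa4, the receptor that takes ferritin to the lysosome, had 628 and 1430 (-0.93). Fbxl5, the ubiquitin ligase subunit that removes Ireb2 protein when iron is plentiful, had 380 and 610 (-0.42). Among these 3, Pcbp2 passed the 2-fold line.

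Farther down by level came Hif1a, the hypoxia factor, with 281 and 545 (-0.7), and Ndufs1, an iron-sulfur subunit of complex I, with 331 and 487 (-0.3). Zfp36l1, which binds AU-rich elements, had 203 and 430 (-0.83), and Cdc42bpa, a kinase, 187 and 395 (-0.82). Slc39a14, a metal importer, had 154 and 271 (-0.56), Mms19, of cytosolic iron-sulfur assembly, 175 and 222 (-0.08), and Steap2, a metalloreductase, 179 and 197 (0.12). Over the 49 genes of the list with all values, the median intron to exon ratio was 0.609 in labeled and 0.153 in unlabeled RNA. Genes of the list with the hairpin letters in a UTR included Alas2 (5′ UTR, 5 pairs), Hif1a (5′ UTR, 4 pairs), and Bach1, Cdc14a and Cisd2 (3′ UTR, 4 pairs). They come from 63 genes searched, and such letters stood in a UTR of 4.54% of all 21587 coding genes. These matches are therefore named only as letters and not as a trait of iron genes.

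The main transcripts, in GRCm38, were Tfrc-202 on the plus strand at chr16:32608983-32623741, Slc11a2-205 on the minus strand at chr15:100392563-100423002, Fth1-201 on the plus strand at chr19:9982646-9985098, Ftl1-201 on the minus strand at chr7:45457944-45459884, Slc40a1-201 on the minus strand at chr1:45908068-45925582, Aco1-201 on the plus strand at chr4:40143081-40198338 and Ireb2-201 on the plus strand at chr9:54863789-54912530. Tfrc-201 reaches farther, to position 32632794. Tfrc-202 has 13 exons and Tfrc-201 has 19, while Fth1-201 and Ftl1-201 have 4 each.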

How the data were processed

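Wild-type mouse embryonic stem cells were labeled with 4sU for 10 min, and 1 labeled and 1 unlabeled library were analysed. Per the methods and labels, the authors removed ribosomal reads, aligned the rest to exonic and intronic sequences of mm10 (GRCm38) with STAR 2.5.0 and quantified them with RSEM, using Ensembl v91. The values they deposited, called TPM, were treated as a score, since each deposited column sums to about 10000000 and not to the total of a TPM column. Read counts, and so depth, are unknown.

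Symbols, biotypes and UTRs came from GENCODE M21, in which 90.9% of the 121429 identifiers were found, and sequences from its transcripts. Levels were summed over the protein-coding transcripts of a gene. Genes with a mean exon value above 1 and both values above 0 were kept, with no pseudocount, and log2 ratios were centred on their median. Calls needed a distance of 2-fold. Rates followed the study's equations, solved on 4000 grid points and tested on simulated rates. No test was made, for want of replicates. The members and gene lists were chosen with earlier results of these data known. Named were all members, for each of Tfrc, Fth1 and Ftl1 the 3 nearest genes, and the 10 other iron genes of highest level. One result on the hairpin letters in the other iron genes is not reported here. Pseudogenes with shared words were named after their values were seen. Alternatives were pseudocounts of 0.1 and 1, other minimums, biotypes and transcripts, no centring, exons plus introns, leakage subtracted, other fits, and other pairing in the hairpin letters. Scripts ran in Python 3.11.15, with scipy 1.17.1 for the roots and fits, numpy 2.4.6 and pandas 2.3.3 for tables, and matplotlib 3.10.9 for plots.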

Additional observations from a re-analysis of the deposited data

How the results depend on the processing

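No paired analysis was possible because each pool has 1 library, so there is also no replicate to leave out. A value counts as moved when it changes by over 1.5-fold, or, for a share, leaves its 95% Wilson interval. The median labeled ratio of the 7 genes was 0.295 and moved to 0.530 with a pseudocount of 1 and to 0.734 with leakage subtracted. The median unlabeled ratio was 0.0335 and moved to 0.0504 with all biotypes and to 0.0560 with a pseudocount of 1. The compatible share was 64.3% (9 of 14) and moved to 100% with a mean exon level above 10, which leaves fewer transcripts. The median half-life was 47.2 min and moved to 5.22 min when both variables were fitted and to 95.0 min when the second library was read as total RNA. The hairpin letters stood in 5 transcripts, and in 10, coding sequence included, when no pairing was needed. Apart from that construction, the cause was not tested.

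The median labeled to unlabeled exon value of the members, -0.44, moved under none of its 10 alternatives, and ran from -0.24 (all biotypes) to -0.7 (no centring). A change of 1.5-fold is larger than the distance of -0.44 from the coding median. The rule therefore cannot tell whether the members lie below that median. Of 208 values of single genes under an alternative, 43 moved. Some alternatives were chosen after seeing the data. For ferritin they were Ftl1 with a pair of its pseudogenes (0.44), and Ftl1 and Fth1 with all measured processed pseudogenes that share at least 10 words (0.39 and 0.7). The others were the members without Slc40a1 (median -0.57), Slc11a2 without Slc11a2-201 (ratio medians 0.295 and 0.0335) and Tfrc-201 in place of Tfrc-202 (median half-life 47.2 min). The values of Slc40a1 rest on levels written to 2 decimals near 0.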

Other observations

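The table also holds transcripts of Tfrc annotated as retained introns, outside the coding members, and they were not small. Tfrc-204 had exon values of 153 in labeled and 445 in unlabeled RNA, Tfrc-205 150 and 670, and Tfrc-206 45.67 and 201. Their centred log2 values were -1.29, -1.9 and -1.88, and Tfrc with all biotypes summed was at -1.77 on the same centre. For Aco1 the noncoding Aco1-202 had 14.81 and 5.83, Aco1-203 9.77 and 9.74, and Aco1-204 20.03 and 18.31, next to 18.58 and 35.85 for Aco1-201. With all biotypes summed Aco1 was at 63.19 and 69.73, a centred log2 of 0.11 on the coding centre, against -0.69 for the coding transcript. Centred instead on the median of genes with all biotypes summed, which is higher by 0.35, the values were -2.13 for Tfrc and -0.24 for Aco1. Relatives of the heavy chain on chromosome X were low: Fthl17b had 32.29 in labeled and 21.86 in unlabeled RNA, Fthl17c 35.85 and 26.31, and Fthl17a was listed at 0 in both.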
